A study of Mus musculus with 8 samples.

Results

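Sperm chromatin is rebuilt in spermatids, and 7 genes that encode variant histones of that chromatin are described here: H1fnt, Hils1, H3f3a, H3f3b, H2afz, H2afx and H2afy. They were taken by symbol from a list of linker and replacement histone genes, and all 7 were found among the 16349 genes of the deposited table. Poly A RNA was measured in 8 libraries from testis cells of C57BL/6 mice, in 4 groups of 2. Round WT, round KO-labelled, elongating WT and elongating KO-labelled are the names used below for the groups, since the labels give a stage (round or elongating spermatids) and a genotype (WT or cKO, a conditional knockout of Carm1). CARM1 is a protein arginine methyltransferase and a coactivator of transcription. Each sample was prepared from 8 testes by centrifugal elutriation, which separates cells by size. The sources used here do not give the Cre driver, the ages of the mice or the deleted exons. The labels do not say whether the 2 libraries of a group are from separate animals. P-values therefore reflect the spread between libraries alone, and that spread may be technical.

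In the round spermatid the DNA is still wound on nucleosomes, and during elongation most histones leave and are replaced by transition proteins and then protamines. Linker histones bind where DNA enters and leaves the nucleosome. H1fnt encodes H1T2, a testis-specific linker histone that lies at the apical pole of the mouse spermatid nucleus, and Hils1 encodes a linker-like histone of elongating spermatids. Replacement variants, in contrast to the histones made in S phase, can be placed on chromatin outside DNA replication. Their mRNAs can carry poly A tails, and mRNA without such a tail is not counted in these libraries. H3f3a and H3f3b encode the same protein, H3.3, which marks transcribed chromatin and accumulates on the sex chromosomes during meiosis. H2afz encodes H2A.Z, found at promoters, H2afx encodes H2A.X, which is phosphorylated at DNA breaks and on the meiotic sex chromosomes, and H2afy encodes macroH2A1, a variant of silent chromatin.

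The 7 genes lie at these places in GRCm38, with exons from GENCODE M21. H1fnt is a single-exon gene of 1308 bases at chr15:98255986-98257293 on the minus strand, and Hils1 is a single-exon gene of 864 bases at chr11:94967593-94968456 on the plus strand. H3f3a spans chr1:180800832-180813943 on the minus strand and H3f3b spans chr11:116021912-116027962 on the minus strand. H2afz spans chr3:137864487-137866922 on the plus strand, H2afx is a single-exon gene at chr9:44334694-44336077 on the plus strand, and H2afy spans chr13:56073619-56136361 on the minus strand. The library kit does not mark strand, so reads of opposite-strand genes cannot be told from these genes, and exons of H3f3a overlap 638 bases of Gm17275 and 160 bases of H3f3aos, those of H2afx 141 bases of Gm44335 and those of H2afy 501 bases of Gm47071. Stretches of at least 75 bases that are at least 95% identical occurred in 28 other genes for H3f3a, 22 of them pseudogenes, in 18 for H2afx, in 6 for H2afz, in 3 for H3f3b and in 1 for H2afy. No such stretch was found for H1fnt or Hils1. Read assignment is thus least certain for H3f3a and H2afx.

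The sequences just upstream of the linker genes are shown because both genes rose toward elongation but moved in opposite directions with the KO label in round cells. They are the 250 bases before the start of each gene in RefSeq (GRCm38.p6), which had entries for 6 of the 7 genes and none for H2afx. Capitals mark TGACG, the first 5 bases of the cAMP response element TGACGTCA, and CCAAT, on either strand (CGTCA and ATTGG on the other). The cAMP response element is bound by CREM, an activator of spermatid genes. H1fnt is at chr15:98257308-98257557 (minus strand) and Hils1 at chr11:94967343-94967592 (plus strand). For H3f3b, 214 of the 250 bases fall in annotated exons of the gene. Only a window from 65 to 36 bases upstream at chr11:116024540-116024569 (minus strand) is given for it.
H1fnt: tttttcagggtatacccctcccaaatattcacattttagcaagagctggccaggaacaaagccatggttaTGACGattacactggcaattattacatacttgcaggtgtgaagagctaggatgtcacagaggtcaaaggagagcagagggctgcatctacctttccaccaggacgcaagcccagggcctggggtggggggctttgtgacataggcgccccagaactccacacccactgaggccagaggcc
Hils1: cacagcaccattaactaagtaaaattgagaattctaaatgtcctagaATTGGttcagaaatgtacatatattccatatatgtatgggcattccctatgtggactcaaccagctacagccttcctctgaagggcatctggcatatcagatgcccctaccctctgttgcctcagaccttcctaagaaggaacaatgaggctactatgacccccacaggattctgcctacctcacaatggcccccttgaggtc
H3f3b: agggttctgTGACGcacTGACGcagcgtgc

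Searched on both strands, TGACGTCA was in 0 of the 6 promoters and in 1.55% of 32851 mouse promoters of the same length. The shorter TGACG, which also lies within TGACGTCA, was in 2 of 6, against 17.8% of all promoters. It stood 180 bases upstream of the H1fnt start and at 56 and 48 bases upstream of H3f3b. CCAAT was in 4 of 6, against 33.8% of all promoters, with 4 copies in H3f3b (97 to 214 bases upstream), 2 in H2afz and 1 each in H3f3a and in Hils1, where it lay 203 bases upstream. The H1fnt window held a TGACG and no CCAAT, and the Hils1 window held a CCAAT and no TGACG. These are matches of letters, and no binding was measured.

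Libraries held between 17190962 and 23526694 recovered reads (the whole-number counts that the deposited values imply). The 50 most abundant genes took 10.1 to 10.3% of reads in round and 31.9 to 34.9% in elongating libraries. Carm1 fell from 1668 ± 26.2 to 1259 ± 119 normalised read counts (SD, n = 2 libraries) in round KO-labelled cells and rose from 4421 ± 159 to 8075 ± 116 in elongating KO-labelled cells (log2 change 0.87, limma adjusted p = 2.7e-09), so the elongating libraries labelled cKO went against their label in the level of the targeted gene. Counts over the whole gene need not show a deletion of some exons, and Carm1 shares 1025 exon bases with Yipf2 on the other strand. Elongating spermatid markers (8 of 8 genes, such as Prm1 and Odf1) summed to 147805 to 151561 in round WT and 3012125 to 3024269 in elongating WT libraries, while spermatocyte markers (12 of 12) summed to 30143 to 30167 and 10885 to 11018.5, respectively. Macrophage and leukocyte markers (10 of 10) summed to 123 to 149.5 in round WT libraries, to 171 to 186 in round KO-labelled libraries, to 4757 to 4764 in elongating WT libraries, and to 1980 to 2060.5 in those with the KO label. Sertoli markers (9 of 10) summed to 317 to 320.1 in round WT libraries, 186 to 196 in round KO-labelled libraries, 6619 to 6631 in elongating WT libraries, and 4649 to 4732 in those with the KO label. None of these markers that the table holds was at 0 throughout a group. The part of these cells in the results below was not tested.

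Levels between genes are compared as normalised read counts per kilobase of exon, where the 2 linker genes stood above the others in every group. In round WT cells H1fnt averaged 4058 and Hils1 3578 per kilobase, followed by H3f3b at 1235, H3f3a at 1073, H2afz at 610.2, H2afx at 135 and H2afy at 54.3. In elongating WT cells H1fnt averaged 36089.5 and Hils1 16669.8 per kilobase, which put them at ranks 56 and 130 of 15698 genes with a length. The H2A variants were the lowest of the 7 there, with 239 for H2afz, 58.1 for H2afx and 32.0 for H2afy. The order H1fnt, Hils1, H3f3a, H3f3b, H2afz, H2afx, H2afy held in elongating cells of both labels. Round cells differed from it: in WT, H3f3b was above H3f3a, and in KO-labelled cells Hils1 at 4343 per kilobase was above H1fnt at 3032. In none of the 24 pairs of neighbours in these orders did the libraries of the 2 genes overlap. That cannot show an error of length, which all libraries would share. The lengths pool the exons of all annotated transcripts, 8 for H2afy, 7 for H3f3a, 4 for H3f3b and 1 for H2afx. Without division by length, H2afy at 370 was above H2afx at 187 in round WT cells, and H3f3a at 3760 above H3f3b at 3676.

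**Figure D1:**
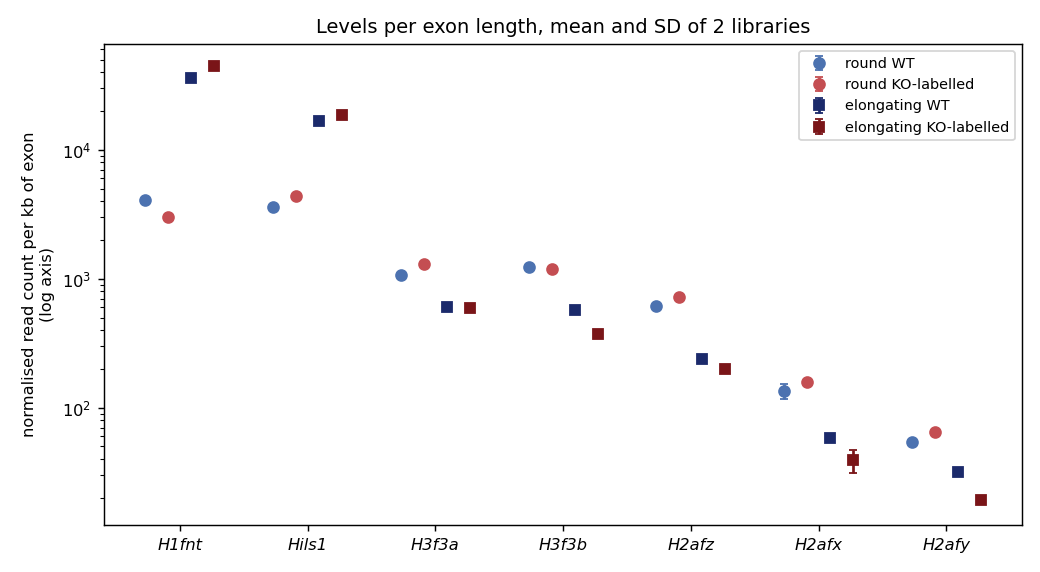
Normalised read counts per kilobase of exon (log axis) for the 7 histone genes in the 4 groups. Points are means of the 2 libraries of a group, with SD. H1fnt and Hils1 lie above the other genes in every group, and H2afy is the lowest in every group.

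From round to elongating cells the linker genes took a larger share of reads and the H3.3 genes a smaller one. H1fnt and Hils1 together made up 0.0763 and 0.0770% of reads in the round WT libraries and 0.203% in both elongating WT libraries. In KO-labelled cells they made up 0.0646 and 0.0677% of round reads and 0.165 and 0.167% of elongating reads. The share thus lay below WT in both stages of KO-labelled cells. In round cells H3f3a and H3f3b together made up 0.0681 and 0.0676% of WT reads, and 0.0681 and 0.0708% of reads with the KO label. In elongating cells they made up 0.0128 and 0.0125% of WT reads, and 0.00705 and 0.00709% with the KO label. In elongating cells the share of the H3.3 genes was lower with the KO label. With libraries scaled to equal totals, the median log2 change of all genes there was -0.61. H3f3a stood 0.01 above that median and H3f3b 0.58 below it, while H1fnt and Hils1 stood 0.35 and 0.20 above it.

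Between round and elongating WT cells, H1fnt and Hils1 rose and the 5 replacement variant genes fell. These 2 genes called higher stand beside 41.7% of all 15685 tested genes called higher, and the 5 called lower beside 40.2% called lower (limma, Benjamini-Hochberg adjusted p under 0.05). With equal library totals the member calls were also 2 and 5, but 19.6% of all genes were then called higher and 68.8% lower. All values from here on are normalised read counts as deposited, and log2 changes are on the log2(value + 1) scale. In a bulk sample, fewer cells of a type and less RNA per cell cannot be told apart.

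H1fnt was measured at 5308 and 5307 in round WT libraries and at 46885 and 47525 in elongating WT libraries, an 8.89-fold rise (log2 change 3.15, SE 0.03, adjusted p = 2.1e-20). Hils1 was at 3035 and 3147 in round WT and at 14459 and 14347 in elongating WT libraries, a 4.66-fold rise (log2 change 2.22, SE 0.04, adjusted p = 1.9e-16). Both linker genes were thus higher at the elongating stage, and H1fnt rose by more. H3f3a went from 3800.02 and 3721 to 2103 and 2160.15 (log2 change -0.82, SE 0.04, adjusted p = 5.3e-11). H3f3b went from 3645 and 3706 to 1753 and 1655 (log2 change -1.11, SE 0.04, adjusted p = 2.5e-12). Both genes of the H3.3 protein were lower at the later stage.

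Among the H2A variants, H2afz went from 1101 and 1066 to 432 and 417 (log2 change -1.35, SE 0.06, adjusted p = 2.6e-11). H2afx went from 204 and 169 to 78.6 and 82.2 (log2 change -1.20, SE 0.15, adjusted p = 3.8e-06). H2afy went from 382 and 357 to 222 and 213 (log2 change -0.76, SE 0.09, adjusted p = 1.1e-06). H2afz, which helps to set the nucleosome beside the promoter, fell by more than H2afy in WT cells, with a stage difference in their log2 ratio of -0.59 (SE 0.03). The log2 ratio of H2afz to H2afx differed between the stages by -0.14 (SE 0.12, exact two-sided permutation p = 0.667). With 2 libraries against 2 this p cannot fall below 0.333, its value for H2afz against H2afy, so the test cannot separate either pair. The 12 markers of replicating cells, such as Mki67 and Pcna, summed to 6502 to 6774 in round WT and 1781 to 1864 in elongating WT libraries, and 12 of 12 were called lower.

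KO-labelled cells moved in the same directions between the stages, with 2 genes higher, beside 42.6% of all genes, and 5 lower, beside 41.8% (16.7% and 72.8% of all genes with equal totals, where the members were again 2 and 5). H1fnt rose 14.7-fold (log2 change 3.87) and Hils1 4.28-fold (log2 change 2.10) there. Log2 changes of the replacement variants were -1.15 for H3f3a, -1.68 for H3f3b, -1.84 for H2afz, -2.01 for H2afx and -1.74 for H2afy. The sizes depend on how libraries are scaled: scaled to equal totals, where the median over all genes moved to -1.42 in WT and -1.87 in KO-labelled cells from 0.01 in both, H1fnt changed by 1.69 and 1.93 and Hils1 by 0.75 and 0.16 on the log2 scale. Every member kept its direction between the stages under each of the 18 alternative settings.

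**Figure D2:**
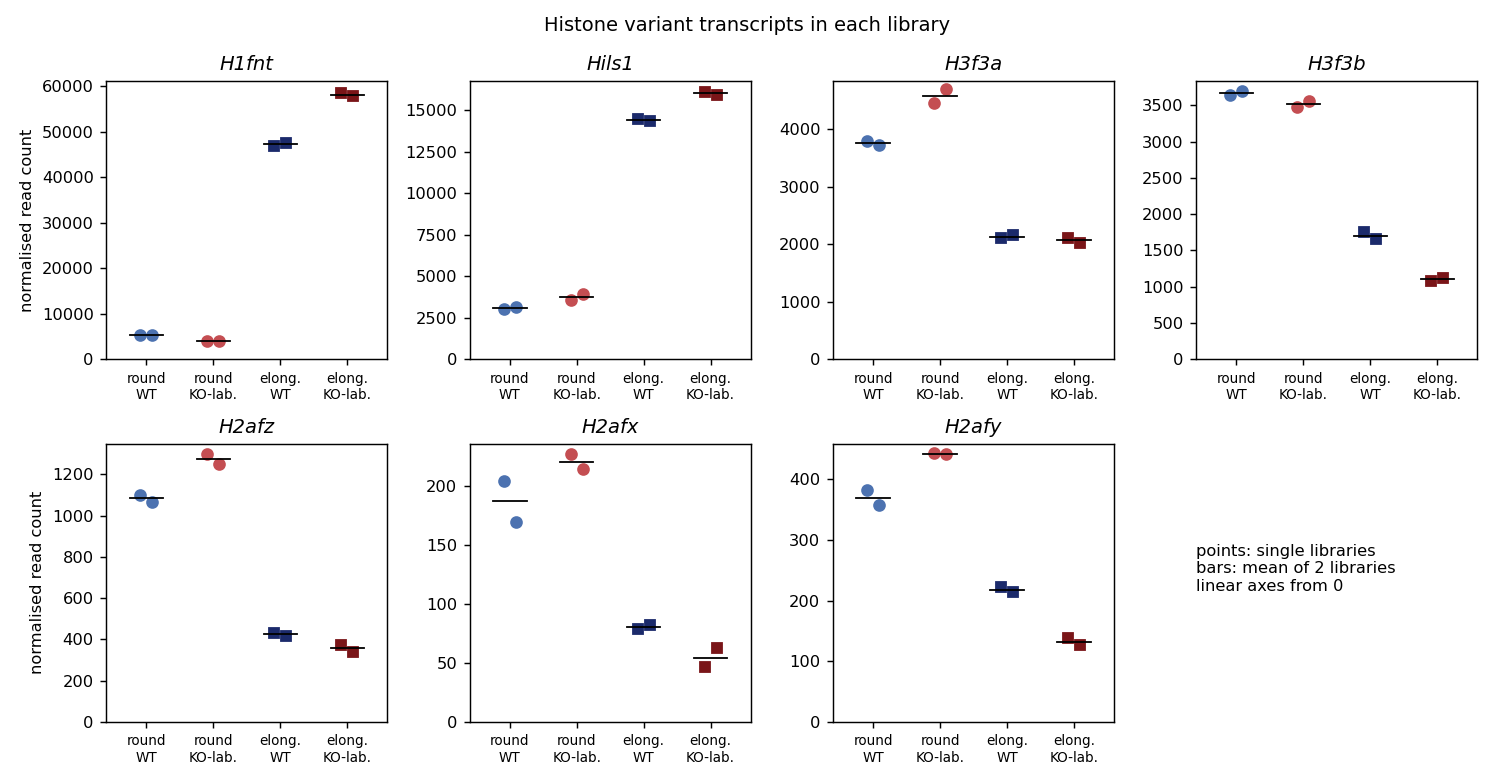
Normalised read counts (linear axis) of each gene in the 8 libraries, by group. Points are libraries, 2 per group, and bars are their means. H1fnt and Hils1 are higher in elongating than in round libraries, and the other 5 genes are lower.

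In round spermatids, KO-labelled cells had less H1fnt mRNA and more of Hils1, H3f3a, H2afz and H2afy. These 4 genes called higher stand beside 19.4% of all tested genes called higher, and the 1 called lower beside 12.6% called lower. With equal totals 2 were called higher and 2 lower, beside 14.0% and 19.5% of all genes, and the balance over all genes turned from 3041 higher and 1977 lower to 2197 and 3060. The median log2 change of the 7 was 0.24, against 0.03 over all genes. H1fnt was at 5308 and 5307 in the WT libraries, against 3958 and 3974 with the KO label (log2 change -0.42, SE 0.03, adjusted p = 3e-08). Hils1 was at 3035 and 3147 in the WT libraries, against 3571 and 3933 with the KO label (log2 change 0.28, SE 0.04, adjusted p = 0.00011). The linker genes therefore moved in opposite directions at this stage, and both calls and directions held under all 18 alternatives.

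The genes of H3.3 also differed from each other in round cells. H3f3a was at 3800.02 and 3721 in the WT libraries, against 4463 and 4705 with the KO label (log2 change 0.29, SE 0.04, adjusted p = 9.8e-05). H3f3b was at 3645 and 3706 in the WT libraries, against 3475 and 3563 with the KO label (log2 change -0.06, 95% interval -0.16 to 0.03, adjusted p = 0.31). H3f3a was thus called higher, while H3f3b was called lower only under other scalings of the libraries. These were equal totals (-0.15, adjusted p = 0.017) and totals without the 50 most abundant genes (-0.15, adjusted p = 0.019).

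H2afz was at 1101 and 1066 in the round WT libraries, against 1301 and 1252 with the KO label (log2 change 0.24, SE 0.06, adjusted p = 0.011). H2afy was at 382 and 357 in the WT libraries, against 443 and 442 with the KO label (log2 change 0.26, SE 0.09, adjusted p = 0.035). H2afx was at 204 and 169 in the WT libraries, against 226 and 214 with the KO label (log2 change 0.24, 95% interval -0.09 to 0.57, adjusted p = 0.26). The calls of these 3 genes depended on the setting. H2afx was called higher with edgeR (adjusted p = 0.022) and in a fit of the round libraries alone (adjusted p = 0.04), and its change was 0.38 without round WT replicate 1 and 0.11 without round WT replicate 2. With equal totals the adjusted p was 0.086 for H2afz and 0.15 for H2afy. The H2afz call was lost without round WT replicate 1 (adjusted p = 0.051), round WT replicate 2 (0.11) or round KO-labelled replicate 1 (0.095), and the H2afy call without any single round library (adjusted p of 0.083 and 0.24 without WT replicates 1 and 2, and 0.15 and 0.14 without KO-labelled replicates 1 and 2). Summed markers of spermatocytes, where H2A.X is abundant, were 30143 to 30167 in round WT and 35419 to 36389 in round KO-labelled libraries, with 3 of 12 called higher and 4 lower. Elongating spermatid markers summed to 147805 to 151561 in round WT libraries and to 163730 to 172981 with the KO label, with 7 of 8 called higher and 0 lower (3 and 0 with equal totals). Of the Sertoli markers, 0 of the 9 tested were called higher and 5 lower, with a median log2 change of -0.75, and of the macrophage and leukocyte markers 3 of 10 were called higher and 0 lower. The part of these cells in the round results was not tested.

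In elongating spermatids, KO-labelled cells had more H1fnt and Hils1 and less H3f3b, H2afz, H2afx and H2afy in the deposited scaling, while with equal totals all 7 were called lower. The 2 called higher stand beside 27.3% of all tested genes called higher and the 4 called lower beside 27.7% called lower, and over all genes the split was 4279 higher and 4348 lower in the deposited scaling against 1394 and 9854 (8.89% and 62.8%) with equal totals. The median over all genes moved from -0.07 to -0.61 between these scalings, so changes are also given relative to it. Summed macrophage and leukocyte markers were lower in the KO-labelled group (10 of 10 genes called lower), and replicating-cell markers summed to 1312 to 1559 against 1781 to 1864 in WT, with 5 of 12 called lower and 0 higher. Round spermatid markers (8 of 8) summed to 17310 to 17746 in WT and 17123 to 17169.5 in KO-labelled libraries, but 5 of 8 were called lower and 1 higher, with a median log2 change of -0.43 (8 of 8 lower with equal totals). Elongating spermatid markers summed to 5152983 to 5305233 in KO-labelled libraries, above the WT sums, and 8 of 8 were called higher (6 higher and 1 lower with equal totals). Of the Sertoli markers, 0 of 9 were called higher and 6 lower. Their part in the results was not tested.

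H1fnt was at 46885 and 47525 in the elongating WT libraries, against 58446 and 57939 with the KO label (log2 change 0.30, SE 0.03, adjusted p = 1.5e-07), but at -0.26 with equal totals. Hils1 was at 14459 and 14347 in the WT libraries, against 16112 and 15949 with the KO label (log2 change 0.15, SE 0.04, adjusted p = 0.0051), but at -0.41 with equal totals. As a share of reads, the linker genes together were lower with the KO label, as given above. The direction of both linker genes at this stage thus turned with the scaling. Relative to the median of all genes in the same scaling, H1fnt stood 0.35 above it and Hils1 0.20 above it with equal totals.

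Of the H3.3 genes, H3f3b carried the difference at this stage in the deposited scaling. H3f3b was at 1753 and 1655 in the WT libraries, against 1074 and 1124 with the KO label (log2 change -0.63, SE 0.04, adjusted p = 1.1e-08). H3f3a was at 2103 and 2160.15 in the WT libraries, against 2114 and 2023 with the KO label (log2 change -0.04, 95% interval -0.13 to 0.05, adjusted p = 0.39). The KO-labelled and WT libraries of H3f3a overlapped at this stage. With equal totals H3f3a was at -0.61 and H3f3b at -1.20, which is 0.01 above and 0.58 below the median of all genes.

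The H2A variants all fell in elongating KO-labelled cells. H2afy, the macroH2A1 gene, went from 222 and 213 to 138 and 126 (log2 change -0.72, SE 0.09, adjusted p = 6.1e-06), and 15.1% of tested genes had a lower change. H2afx went from 78.6 and 82.2 to 46.5 and 62.2 (log2 change -0.57, SE 0.15, adjusted p = 0.0059). H2afz went from 432 and 417 to 374 and 337 (log2 change -0.25, SE 0.06, adjusted p = 0.0038). The 3 genes stayed lower in every alternative. H2afx rests on few reads, 61 and 57 in the WT libraries, against 24 and 33 with the KO label. Its change was -0.36 (adjusted p = 0.046) without elongating KO-labelled replicate 1 and -0.78 without elongating KO-labelled replicate 2. DESeq2 on the recovered reads did not call H2afx (adjusted p = 0.088) or H2afz (0.059).

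**Figure D3:**
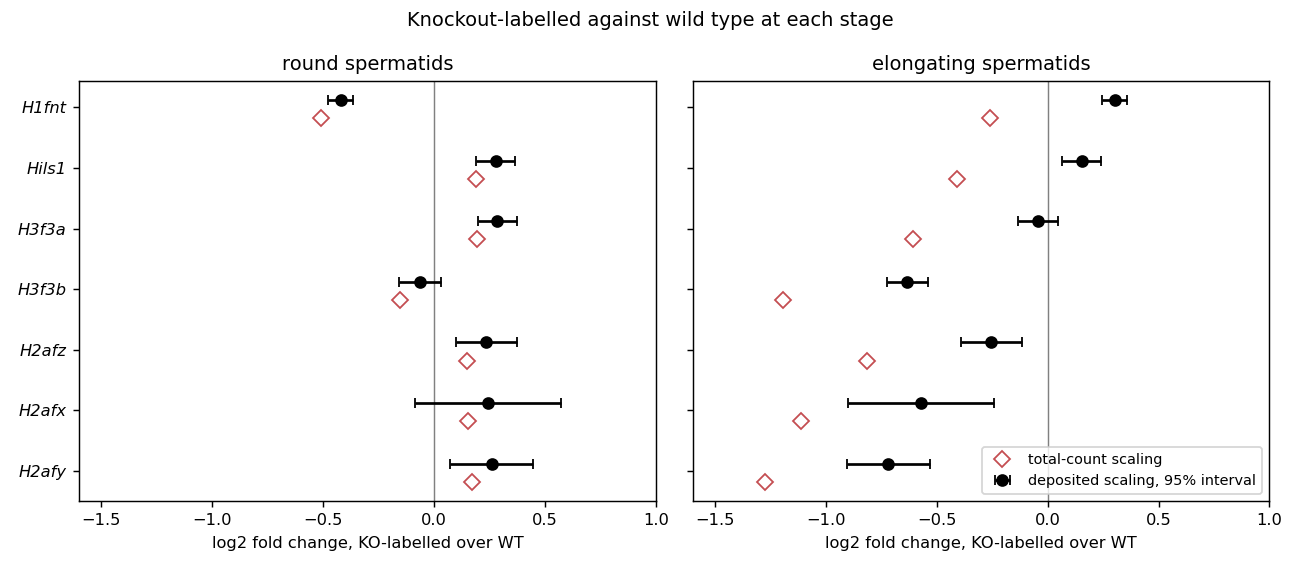
Log2 change, KO-labelled against WT, of the 7 genes in round and elongating spermatids, with 95% intervals from limma, in the deposited scaling and with equal library totals. H1fnt lies below 0 in round cells under both scalings and in elongating cells is at 0.30 in one and -0.26 in the other.

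The KO-labelled against WT change differed between the stages for 6 of the 7 genes. H1fnt was called higher, beside 19.3% of all tested genes, with a difference of 0.72 (elongating minus round, log2, SE 0.04, adjusted p = 4.1e-09). Lower calls were 5, beside 17.5% of all genes. With equal totals 1 was called higher and 6 lower, beside 5.47% and 45.1% of all genes. In the deposited scaling the lower differences were -0.33 for H3f3a (adjusted p = 0.0004), -0.57 for H3f3b (3.8e-06), -0.49 for H2afz (0.00058), -0.81 for H2afx (0.0085) and -0.98 for H2afy (1.7e-05). For H2afy, 7.82% of tested genes had a lower difference. Hils1 had a difference of -0.12 (95% interval -0.25 to 0.00, adjusted p = 0.11). It was called lower with equal totals (-0.60), with totals without the 50 most abundant genes (-0.54), with TMM scaling (-0.16, adjusted p = 0.046), with edgeR (-0.16, adjusted p = 0.011) and without round KO-labelled replicate 1 (-0.19, adjusted p = 0.0059). The H2afx call was lost without round WT replicate 2 (-0.68, adjusted p = 0.06). With equal totals the H1fnt difference was 0.25 (adjusted p = 2.8e-05), so H1fnt was the one gene of the 7 whose change was more positive at the later stage under both scalings.

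Ratios of 2 genes within a library do not depend on the scaling. H3f3a to H3f3b, the ratio of the genes for one protein, was 1.04 and 1.00 in WT libraries of round cells, against 1.28 and 1.32 with the KO label. At the elongating stage it was 1.20 and 1.30 in WT libraries, against 1.97 and 1.8003 with the KO label. It was higher with the KO label in both stages, by 0.35 (SE 0.03) on the log2 scale in round and 0.59 (SE 0.09) in elongating cells, and the libraries did not overlap within a stage. The exact two-sided permutation p of each was 0.333, the smallest that 2 libraries against 2 allow, so this test cannot call any such difference.

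H1fnt to Hils1 was 1.75 and 1.69 in WT libraries of round cells, against 1.11 and 1.01 with the KO label. At the elongating stage it was 3.24 and 3.31 in WT libraries, against 3.63 in both with the KO label. The linker ratio was thus lower with the KO label in round cells, by -0.70 (SE 0.07) on the log2 scale, and higher in elongating cells, by 0.15 (SE 0.02). H2afz to H2afy was 1.95 in both elongating WT libraries and 2.72 and 2.67 in elongating KO-labelled libraries, a log2 difference of 0.47. In round cells this ratio was 2.88 and 2.98 in the WT libraries, against 2.94 and 2.83 with the KO label, where the groups overlapped.

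**Figure D4:**
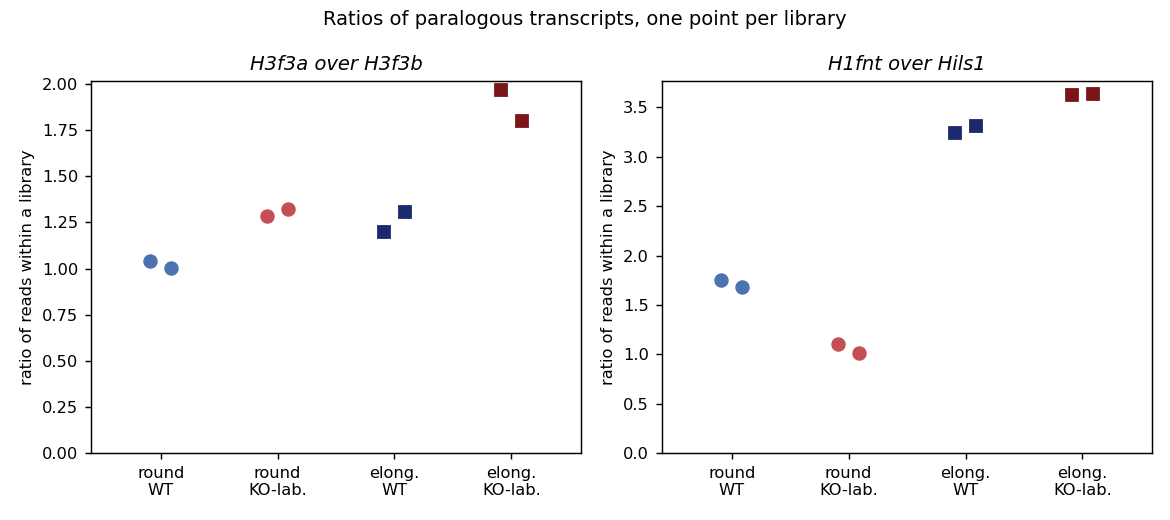
Ratios of reads within each library, by group, on a linear axis. Points are libraries, 2 per group. The H3f3a to H3f3b ratio is higher with the KO label in both stages, and the H1fnt to Hils1 ratio is lower with it in round cells and higher in elongating cells.

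Although both linker genes rose with elongation, their profiles over the 8 libraries were not close, with a root mean square log2 distance of 0.724 after each profile was centred on its mean. The 3 genes nearest to H1fnt were Tcea1 (distance 0.0400), which encodes an elongation factor of RNA polymerase II, 1700025G04Rik (0.0534) and Mgat5 (0.0702), a glycosyltransferase gene. Tcea1 averaged 434 and 3942 in round and elongating WT cells, and 321 and 4852 with the KO label. These 3 genes were lower with the KO label in round cells and, in the deposited scaling, higher in elongating cells. With equal totals they were lower in both. They were picked for nearness over the same 8 libraries, so this likeness to H1fnt followed from the choice. Nearest to Hils1 were Rps19 (0.0728), a ribosomal protein gene, Got2 (0.0783), which encodes mitochondrial aspartate aminotransferase, and Snrpd2 (0.0839), a spliceosomal Sm protein gene. Rps19 averaged 384 and 1753 in round and elongating WT cells, and 434 and 1904 with the KO label. Among the replacement variants, H3f3b and H2afy were the closest pair, at a distance of 0.149. These distances are a description, since 2 libraries per group shape every profile.

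Of 28 other histone genes listed, 18 were in the table and tested. Poly A RNA was measured, so any mRNA of these genes without a poly A tail is missing from the counts. In round cells 6 were called higher and 1 lower with the KO label (4 and 1 with equal totals), beside 19.4% and 12.6% of all genes (14.0% and 19.5%), and their median change was 0.32 against 0.03 over all genes. Hist3h2a, an H2A gene, rose from 33.9 ± 4.27 to 113 ± 1.20 (log2 change 1.71, adjusted p = 1.4e-06), and Hist1h3a, an H3 gene, rose by 1.07 (adjusted p = 0.003), but was not called without round WT replicate 1 (adjusted p = 0.053). H2afb1, a gene of the short H2A.B family, fell by 0.21 (adjusted p = 0.0035). In elongating cells 5 were called higher and 4 lower, beside 27.3% and 27.7% of all genes, and 1 and 7 with equal totals, beside 8.89% and 62.8%. Hist3h2a was again higher, at 159 ± 0.477 against 55.8 ± 1.36 (log2 change 1.49, adjusted p = 1.3e-06), and also with equal totals (0.93). H2afy2, which encodes macroH2A2, was at 0.60 (adjusted p = 0.0041) in the deposited scaling, opposite in sign to H2afy, but at 0.04 (adjusted p = 0.82) with equal totals, and at 0.39 without elongating WT replicate 2. Hist1h1c and Cenpa fell by 1.72 and 1.14 from means of 18.2 and 11.6. The Hist1h1c call was lost without elongating WT replicate 1 (adjusted p = 0.11) or elongating KO-labelled replicate 2 (0.063), and DESeq2 called neither (adjusted p = 0.087 for Hist1h1c and 0.22 for Cenpa, which edgeR did not call either, at 0.11).

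All 28 listed chaperones and remodellers that place or exchange the variants were tested. In round cells 5 were called higher and 2 lower, beside 19.4% and 12.6% of all genes, and 4 and 5 with equal totals, beside 14.0% and 19.5%. Ipo4, an importin that carries histones, rose by 0.34 (adjusted p = 1.2e-06) and Daxx, a chaperone of H3.3, by 0.24 (adjusted p = 0.0059, and 0.065 with equal totals). The Daxx call was also lost without round WT replicate 1 (adjusted p = 0.063) or round KO-labelled replicate 2 (0.061). Ubn1, a subunit of the HIRA complex that deposits H3.3, fell by 0.31 (adjusted p = 0.0027), and Ssrp1, a subunit of FACT, by 0.20 (adjusted p = 0.0034). In elongating cells 10 were called higher and 13 lower, beside 27.3% and 27.7% of all genes, and 1 and 20 with equal totals, beside 8.89% and 62.8%. Asf1b, an H3-H4 chaperone gene, and Npm2, a nucleoplasmin gene, were at 0.90 and 0.89 but were not called with equal totals (adjusted p = 0.067 and 0.076). The Asf1b change was 0.60 without elongating WT replicate 2 and 1.21 without elongating WT replicate 1. Ruvbl2, an ATPase of the complexes that exchange H2A.Z, fell from 580.1 ± 12.8 to 321 ± 4.38 (log2 change -0.85, adjusted p = 1.4e-09). Nasp, a histone chaperone gene, fell from 2685 ± 77.8 to 1583 ± 15.5 (log2 change -0.76, adjusted p = 3.6e-10).

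The list of 20 genes tied to histone removal had 7 called higher and 3 lower in round cells (2 and 5 with equal totals) and 9 higher and 3 lower in elongating cells (2 and 16). Over all genes the shares were 19.4% and 12.6% in round cells (14.0% and 19.5%) and 27.3% and 27.7% in elongating cells (8.89% and 62.8%). In round cells Kat8, a histone H4 acetyltransferase gene, rose by 0.41 (adjusted p = 1.9e-05), and Top2b, which encodes a topoisomerase, fell by 0.79 (adjusted p = 0.0016). Trp53bp1, which encodes a reader at DNA breaks, rose by 0.28 (adjusted p = 0.0036), but was not called without round WT replicate 1 (adjusted p = 0.061). Epc1, a subunit gene of the NuA4 acetyltransferase, fell by 0.21 (adjusted p = 0.018). That call was lost without any single round library, with adjusted p-values of 0.12 and 0.082 without WT replicates 1 and 2 and 0.098 and 0.058 without KO-labelled replicates 1 and 2. In elongating cells Psme4, which encodes the PA200 activator of the proteasome that degrades acetylated histones, rose by 0.82 (adjusted p = 9.7e-12), and Brdt, a testis bromodomain gene needed for histone eviction, by 0.71 (adjusted p = 8.5e-10). Both were also called higher with equal totals, by 0.26 and 0.15. Pygo2 fell by 0.99 (adjusted p = 7.2e-05) and Hdac1, a histone deacetylase gene, by 0.79 (adjusted p = 1e-07). All 5 transition protein and protamine genes were higher with the KO label in elongating cells, with a median of 0.81 in the deposited scaling and 0.25 with equal totals.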

How the data were processed

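The deposited table holds a normalised signal for every gene in every library. By its steps this is a read count over the authors' size factor for that library: read as multiples of the column's lowest non-zero entry, 100% of values came out whole (tolerance 1e-06). Per the submitters' processing notes, DESeq 1.16.0, HTSeq 0.6.0, TopHat2 2.0.10 and CASAVA 1.8.2 were used, with mm10 and GRCm38. No source used here gives the strand setting or annotation. Libraries were made with the TruSeq RNA kit v2, per the labels' protocols.

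Genes at 10 or more in at least 2 libraries (15685, all 7 members included) were tested on log2(value + 1) with limma 3.58.1 in R 4.3.3, with a mean-dependent prior variance (trend). All 8 libraries entered 1 model of 4 group means with 4 residual degrees of freedom, and p-values were Benjamini-Hochberg adjusted over all genes, two-sided, with a threshold of 0.05. A pseudocount understates the change of low genes. On the recovered reads, edgeR 4.0.16 called 4156 genes higher and 3163 lower in round and 4023 and 4113 in elongating cells, and DESeq2 1.42.0 was also run. Lengths are merged exons of GENCODE M21, matched by symbol.

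The members and lists were chosen with earlier results of these data known. All members and Carm1 are named, with, per list and knockout comparison, up to 2 called genes of largest rise and 2 of largest fall, and the 3 nearest profiles of each linker gene. The procedure was tested on simulated data.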

Additional observations from a re-analysis of the deposited data

Results flagged for a closer look

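For 6 of the 7 genes the tested difference between the stages in the KO-labelled against WT change passed the threshold, which is what marked them. On the log2 scale, elongating minus round, it was 0.72 for H1fnt, -0.33 for H3f3a, -0.57 for H3f3b, -0.49 for H2afz, -0.81 for H2afx and -0.98 for H2afy (limma). With equal library totals, where the median difference over all genes moved from -0.04 to -0.49, the values were 0.25, -0.80, -1.04, -0.96, -1.27 and -1.44. Of all tested genes, 19.3% were called higher and 17.5% lower for this difference, and 5.47% and 45.1% with equal totals. Groups of 2 libraries are too small for a search for single outlying libraries.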

How the results depend on the processing

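Of 630 member values computed under 18 alternatives, 600 kept their direction and side of the threshold, 15 lost a call, 11 gained one and 4 turned. The 4 that turned were the elongating changes of H1fnt (-0.26 with equal totals, -0.20 with totals without the 50 most abundant genes) and Hils1 (-0.41 and -0.35). Under both of these scalings, members called in round cells went from 4 to 2 higher and from 1 to 2 lower, and in elongating cells from 2 to 0 higher and from 4 to 7 lower. Of all genes, equal totals called 14.0% higher and 19.5% lower in round cells, and 8.89% and 62.8% in elongating cells. Without the 50 most abundant genes, 2194 of 15685 genes were called higher and 3002 lower in round cells, and 1645 and 9308 in elongating cells. DESeq2 called 2 members lower in elongating cells, beside 2760 of all 15685 genes. Leaving out 1 library at a time, with a lone library assumed to vary like the others, gave 2 to 4 higher in round cells. Equal totals multiplied levels by 1.862, 1.75, 0.6736 and 0.4557 in round WT, round KO-labelled, elongating WT and elongating KO-labelled cells, and turned the stage change of Carm1 in WT from 1.41 to -0.061. Differences between replicates 1 and 2 hardly correlated between groups (-0.015 to 0.031), which cannot tell whether the numbers mark shared animals or days. With the replicate block, member counts were 4 and 1 in round and 2 and 4 in elongating cells, with no member call changed. Those of all genes were 2998 and 1934, and 4251 and 4332. Few reads limit H2afx and H2afy most.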
